A study of Mus musculus with 2 samples.

Results

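Long noncoding RNA (lncRNA) promoters that lie away from coding genes were represented by 894 open chromatin sites, out of 43755 sites with a peak in each of 2 mice and 82968 merged sites in all. DNase-seq finds open chromatin by sequencing the ends left when nuclei are treated with the nuclease DNase I. The tissue was left cerebral cortex from male B6CASTF1/J animals, 36 days old, and the 2 libraries are called replicate 1 and replicate 2. B6CASTF1/J mice are the first-generation offspring of a cross between C57BL/6J and CAST/EiJ, and the files do not separate the alleles of the parents. Their labels name the same donor but 2 different male numbers, and they were treated as 2 mice, an assumption on which every SD over mice rests. No agent is named, and both form 1 group, so no test across animals was possible and no p is given.

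A site is a run of overlapping or touching peaks of the mice, and it was kept when each mouse had a peak in it. It was taken as a lncRNA promoter site when it lay on chromosomes 1 to 19 or X, its midpoint was within 1 kb of a transcript start of a gene typed lincRNA, antisense or another lncRNA class in GENCODE M21, and its midpoint was over 5 kb from every transcript start of a protein-coding gene. With peaks of replicate 1 alone 1378 sites met the rule, and with those of replicate 2 alone 1145. Height, the measure of openness, is the authors' signal at the highest peak of the site in a mouse. The heights were whole multiples of 1 step per library (100% within 0.02 of a step), and they were read as cuts scaled to 1 M, which puts the inferred depth of replicate 1 at 160.1 M cuts and that of replicate 2 at 145.4 M. The median lncRNA promoter site had 263 cuts in replicate 1 and 172 in replicate 2 on that reading, a counting error of 6.17% and 7.61%. Values below are given per mouse as height in cuts per 1 M cuts, and as mean ± SD over the mice where a single number is needed. In bulk tissue, fewer open cells and less opening per cell cannot be told apart.

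Most lncRNAs are transcribed by RNA polymerase II, spliced and polyadenylated like messenger RNAs, and their promoters share the general transcription machinery of coding genes. Many are expressed at low levels and in few cell types, and the brain is one of the tissues with the richest lncRNA repertoire. A well-known part of them hosts microRNAs or small nucleolar RNAs (snoRNAs) in its introns or exons, builds nuclear bodies, or takes part in imprinting and X inactivation. Many start at divergent promoters shared with a coding gene, which is why only starts away from coding genes are described here.

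The sites were named by the lncRNA gene with the nearest start. By gene type, 618 were lincRNA sites, 132 antisense, 130 processed_transcript, 10 sense_intronic and 4 sense_overlapping. They had 754 nearest genes, of which 638 had 1 site, 100 had 2 and 16 had 3 or more, with at most 6 at Mir99ahg. Sites of 1 gene share a locus and are not independent. Of the 894 sites, 809 belonged to genes with clone-based names such as Gm or Rik numbers. Most, 760, lay between coding genes, 106 lay inside a coding gene on the opposite strand and 28 inside one on the same strand. The median distance to a coding start was 39356 bp, and 220 sites were over 100 kb from one.

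The label of lncRNA rests on GENCODE gene types, and RefSeq on the same assembly gives a partly different picture. In RefSeq, 45 sites were within 1 kb and 57 (6.38%) within 5 kb of the start of a messenger RNA, 30 of the latter with a curated one. Zswim6 (3 sites), Trerf1 and Tmem250-ps are examples whose gene carries a noncoding type in GENCODE M21. Without these 57 sites, 837 remained, and the median height was 1.42 ± 0.315 (n = 2 mice) against 1.41 ± 0.322 with them. Of the 894 sites, 61 were within 1 kb of the start of a further kind of gene, most often one typed TEC, whose coding status is undecided (20), a misc_RNA (10) or a snoRNA (9). The tissue label was read against promoters of marker genes. A site in both mice was present at 4 of 5 excitatory neuron genes, 2 of 5 each for astrocytes and oligodendrocytes, 1 of 5 each for microglia and endothelial cells, and 0 of 5 inhibitory neuron genes. That is 10 of 30 markers, against 57.2% of all coding genes. With 5 genes per cell type, the counts are too small to check the label.

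The sequences of some sites named below are shown: the highest site of the Malat1, Kcnq1ot1, Ftx, Snhg8 and Miat genes, and 2 of the highest sites of all. Each is written 5′ to 3′ on the strand of its lncRNA, from the mm10 assembly (GRCm38.p6, RefSeq), with bases inside footprints of both mice in capitals. A footprint is a short stretch protected from cutting, as the authors called it per library. Sites over 300 bp are shown by their central 300 bp. The coordinates are chr19:5803481-5803700 for Malat1, chr7:143296511-143296810 for Kcnq1ot1, chrX:103622381-103622660 for Ftx, chr3:123508321-123508600 for Snhg8, chr5:112228748-112229047 for Miat, all on the minus strand, with chr5:151368541-151368840 on the plus strand for 1700028E10Rik and chr3:88177981-88178240 on the minus strand for 1700113A16Rik.
Malat1: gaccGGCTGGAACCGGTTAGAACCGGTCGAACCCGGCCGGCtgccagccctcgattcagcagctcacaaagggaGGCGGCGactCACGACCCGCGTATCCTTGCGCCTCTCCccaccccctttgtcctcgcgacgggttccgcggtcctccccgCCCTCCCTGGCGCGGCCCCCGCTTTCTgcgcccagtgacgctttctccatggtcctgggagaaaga
Kcnq1ot1: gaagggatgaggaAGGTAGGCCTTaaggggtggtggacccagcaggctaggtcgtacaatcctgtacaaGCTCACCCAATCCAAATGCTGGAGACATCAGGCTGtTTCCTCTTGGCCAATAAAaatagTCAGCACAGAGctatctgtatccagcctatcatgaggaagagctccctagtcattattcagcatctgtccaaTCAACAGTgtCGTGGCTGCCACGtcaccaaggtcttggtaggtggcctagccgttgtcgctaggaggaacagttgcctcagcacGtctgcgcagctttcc
Ftx: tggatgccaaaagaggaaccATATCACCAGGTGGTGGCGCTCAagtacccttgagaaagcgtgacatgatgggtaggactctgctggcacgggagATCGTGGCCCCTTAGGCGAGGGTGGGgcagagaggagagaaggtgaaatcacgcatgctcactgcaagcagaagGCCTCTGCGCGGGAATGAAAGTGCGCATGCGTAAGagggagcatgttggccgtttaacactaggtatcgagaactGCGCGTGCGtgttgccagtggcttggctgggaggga
Snhg8: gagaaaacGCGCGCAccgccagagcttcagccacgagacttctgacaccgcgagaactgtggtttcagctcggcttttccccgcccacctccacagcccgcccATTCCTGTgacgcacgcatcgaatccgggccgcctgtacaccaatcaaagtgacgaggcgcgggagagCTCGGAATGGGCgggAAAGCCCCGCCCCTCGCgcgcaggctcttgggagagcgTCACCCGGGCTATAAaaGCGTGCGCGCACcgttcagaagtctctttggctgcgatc
Miat: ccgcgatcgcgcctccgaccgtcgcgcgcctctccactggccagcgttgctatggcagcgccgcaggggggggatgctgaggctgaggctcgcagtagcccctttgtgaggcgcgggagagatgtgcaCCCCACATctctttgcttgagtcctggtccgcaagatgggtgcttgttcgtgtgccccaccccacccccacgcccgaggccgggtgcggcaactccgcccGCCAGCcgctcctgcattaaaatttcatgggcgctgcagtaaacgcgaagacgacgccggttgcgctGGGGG
1700028E10Rik: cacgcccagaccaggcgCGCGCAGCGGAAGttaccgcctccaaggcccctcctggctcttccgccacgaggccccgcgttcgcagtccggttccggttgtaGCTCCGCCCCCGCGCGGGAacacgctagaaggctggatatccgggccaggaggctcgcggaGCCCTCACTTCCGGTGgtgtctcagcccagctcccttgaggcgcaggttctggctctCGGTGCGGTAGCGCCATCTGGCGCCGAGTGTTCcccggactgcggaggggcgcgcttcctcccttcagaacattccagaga
1700113A16Rik: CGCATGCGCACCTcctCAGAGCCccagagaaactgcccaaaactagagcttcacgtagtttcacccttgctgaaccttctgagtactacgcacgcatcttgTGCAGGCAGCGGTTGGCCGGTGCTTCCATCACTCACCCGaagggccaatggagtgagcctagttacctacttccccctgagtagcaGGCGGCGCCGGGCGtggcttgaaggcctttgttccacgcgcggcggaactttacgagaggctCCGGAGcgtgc
The share of bases in capitals was 45.0% in Malat1, 32.3% in Kcnq1ot1, 33.2% in Ftx, 25.4% in Snhg8, 6.33% in Miat, 27.0% in 1700028E10Rik and 30.4% in 1700113A16Rik.

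The median lncRNA promoter site was as high as the median of all sites, lower than coding promoters and higher than distal sites, in each mouse. It was 1.64 in replicate 1 and 1.19 in replicate 2. Coding promoter sites (15613, midpoint within 1 kb of a coding start) had medians of 3.59 and 1.93. Distal sites (21884, over 5 kb from coding starts and over 1 kb from any start) had 1.21 and 0.963, and all sites had 1.66 and 1.17. The coding median over the lncRNA median was 2.18 and 1.63 in replicates 1 and 2 (1.91 ± 0.391, SD over 2 mice), and the lncRNA median over the distal one was 1.36 and 1.23 (1.30 ± 0.0923). The 1875 sites at lncRNA starts within 5 kb of a coding start, which include coding promoters, were at 3.72 and 1.99, close to coding promoters in both mice. Spread within the class was wide, with quartiles of 1.01 and 2.87 in replicate 1 and of 0.800 and 2.00 in replicate 2.

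The lncRNA promoters were spread nearly evenly over the range of heights, while coding promoters lay more in the high part and distal sites in the low part. All 43755 sites were ordered by mean height and cut into 10 equal bins, and each bin held between 7.61% and 11% of the 894 sites. Of all coding promoter sites 2.84% were in the lowest bin and 25.7% in the highest, and of all distal sites 15.9% and 0.813%. Among the highest 1% of sites (437), 10 were lncRNA promoters, against 894 of all 43755 sites. Among the highest 10% (4375), 68 were. That is 1.55% of the bin, below the 1.78% to 2.24% of the other bins.

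CpG content separated the lncRNA promoters into a higher and a lower part. The CpG ratio compares the CpG count of the 300 bp around the midpoint with that given by the base content, and a site was called CpG-rich at 0.6 or more. CpG-rich promoters are usually used in many tissues, and CpG-poor ones more often in few. Of the 894 sites, 257 (28.7%) were CpG-rich, against 74.3% of coding promoter sites and 6.17% of distal ones. The median ratio was 0.431, against 0.789 in coding promoters and 0.265 in distal sites. CpG-rich lncRNA promoters had a median height of 3.39 in replicate 1 and 1.88 in replicate 2, and CpG-poor ones 1.35 and 1.07, a difference of 2.51-fold and 1.76-fold. The groups overlapped: the lower quartile of the CpG-rich sites was 1.72 and 1.01, below the upper quartile of the CpG-poor ones, 2.09 and 1.58. The same contrast was 2.67-fold and 1.97-fold in coding promoters and 1.60-fold and 1.29-fold in distal sites.

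**Figure D1:**
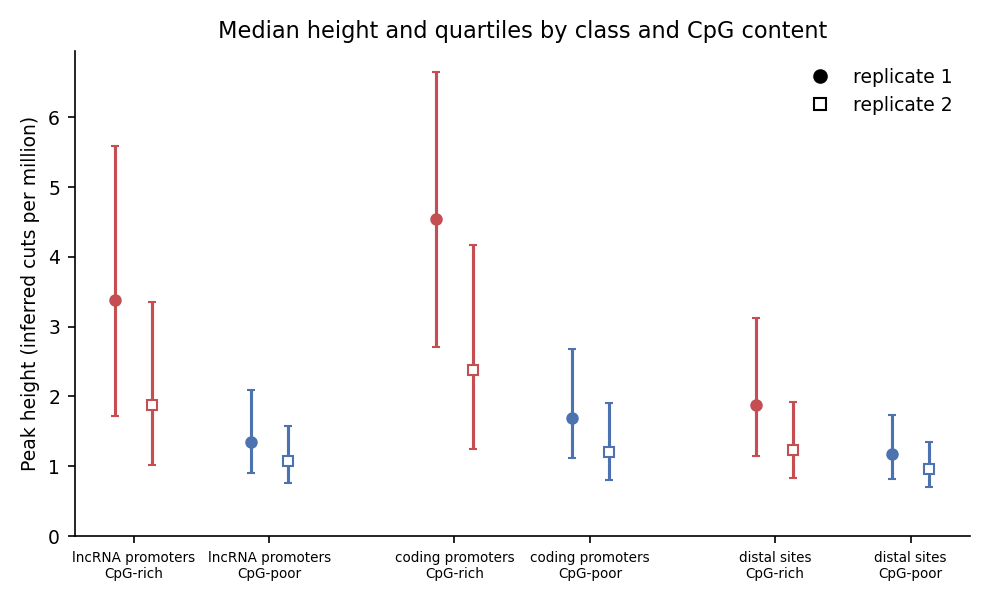
Median peak height (points) with lower and upper quartiles (bars) of lncRNA promoters, coding promoters and distal sites, split at a CpG ratio of 0.6, on a linear axis of inferred cuts per 1 M. Filled circles are replicate 1 and open squares replicate 2. The CpG-rich lncRNA promoters had medians of 3.39 and 1.88 and the CpG-poor ones 1.35 and 1.07.

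Within a CpG class the distance to coding promoters was smaller. Among CpG-rich sites the coding median was 1.34 times the lncRNA median in replicate 1 and 1.26 times in replicate 2, and among CpG-poor sites 1.26 and 1.12 times. CpG-rich lncRNA promoters were 1.80 and 1.52 times as high as CpG-rich distal sites, and CpG-poor ones 1.15 and 1.12 times as high as CpG-poor distal sites. Across the 894 sites, height and CpG ratio had a Spearman correlation of 0.469 in replicate 1 and 0.317 in replicate 2, a description over sites that share 2 libraries. All 10 of the highest sites and 82 of the highest 100 were CpG-rich, against 8 of the lowest 100. High sites of all classes were mostly CpG-rich too: 94.6% of all sites over a mean height of 8, against 8.14% of those up to 1.

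Other properties went with height too. Sites of processed_transcript genes were higher (2.22 and 1.5, 130 sites) than lincRNA sites (1.60 and 1.18) and antisense sites (1.55 and 1.1), and 46.9% of them were CpG-rich, against 25.4% and 25%. The 34 sites with lncRNA starts on both strands within 1 kb had medians of 2.70 and 1.88, against 1.62 and 1.18 for the other 860. Their CpG-rich share was 47.1% against 28.0%. Whether these starts point away from each other was not checked. Whether height would differ at equal CpG content was not tested. On chromosome X, 25 sites had medians of 1.61 and 1.07, close to the autosomal 1.64 and 1.20, while coding promoters on X (499 sites) were at 1.98 and 1.23 against 3.69 and 1.97 on autosomes. The CpG-rich share was 56.0% on X and 28.0% on autosomes among lncRNA sites, against 65.5% and 74.6% among coding sites. Male mice have 1 copy of X, and the copy number was not corrected.

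The rule itself keeps every midpoint within 1 kb of a lncRNA start, so closeness to a start is partly set by it. An even spread over that window would put 25% of sites within 250 bp and 50% upstream. The median offset of the midpoint was −33 bp, 58.2% of sites lay upstream, and 57.9% lay within 250 bp. The site itself covered the start in 47.1% of cases. CpG-rich sites were nearer, with 45.5% within 100 bp and 67.3% upstream, against 31.9% and 54.5% for CpG-poor ones. Sites within 250 bp were higher (1.78 and 1.24) than those farther away (1.43 and 1.12).

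**Figure D2:**
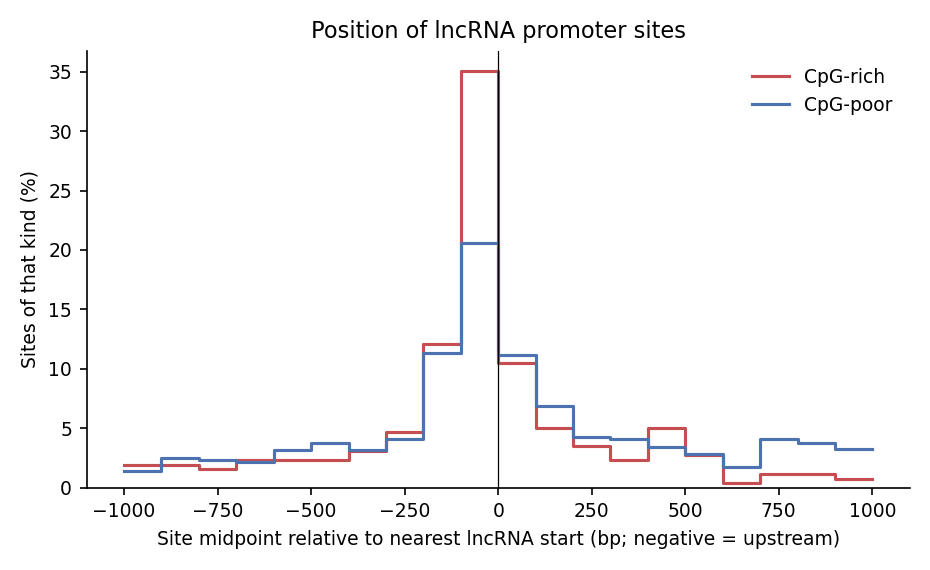
Distance from the midpoint of each lncRNA promoter site to its nearest lncRNA start, in bins of 100 bp, negative upstream, as a percent of the 257 CpG-rich (red) or 637 CpG-poor (blue) sites. The tallest bin, just upstream of the start, held 35.0% of CpG-rich and 20.6% of CpG-poor sites.

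Sites just inside and just outside the thresholds of the rule were set side by side. The 85 sites over 800 and up to 1000 bp from a lncRNA start had medians of 1.47 and 1.08, and the 78 sites just outside, up to 1200 bp, had 1.36 and 1.23. The nearest inside were at Gm49793 (995 bp, 1.01 and 1.04), 1700096J18Rik (994 bp, 1.44 and 1.53) and Gm15411 (993 bp, 1.14 and 0.709), and the nearest outside at Gm14340 (1001 bp, 2.70 and 2.27), 3300002A11Rik (1003 bp, 1.06 and 1.71) and Gm15945 (1005 bp, 0.849 and 0.963). At the distance from coding starts, the 24 sites over 5 and up to 6 kb away had 1.69 and 1.25, and the 34 over 4 and up to 5 kb away had 2.26 and 1.41. There the nearest inside were at Ptprv (5015 bp, 1.49 and 1.05), Gm26841 (5112 bp, 4.98 and 2.86) and E230001N04Rik (5184 bp, 4.88 and 2.91). The nearest outside were at Gm49782 (4972 bp, 1.51 and 0.715), AA465934 (4935 bp, 5.52 and 4.94) and Gm10143 (4913 bp, 1.55 and 1.42).

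Most lncRNA genes away from coding genes had no site. Of 9603 lncRNA genes, 6722 had a start over 5 kb from every coding start, and 777 of these (11.6%, 95% Wilson interval 10.8 to 12.3%) had a site in both mice. Coding genes had one in 57.2% of cases (12433 of 21755). The share was 23.7% in processed_transcript genes, 11.8% in lincRNA genes, 8.20% in antisense genes and 4.48% in sense_intronic genes. A peak within 1 kb was listed for 15.4% of these genes in replicate 1 and 13.8% in replicate 2, and in the longer peak list for 22.7% and 20.5%. Any base with a false discovery rate of 0.05 or less was listed for 25.6% and 22.9%. The intervals cover counting error over genes only.

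Both nuclear body lncRNAs had open promoters. Malat1 makes an abundant RNA of nuclear speckles and Neat1 the scaffold of paraspeckles. Malat1 had a site 29 bp upstream of its start with 5.88 in replicate 1 and 4.43 in replicate 2, and one 919 bp upstream with 9.76 and 5.88, the 14th highest of the 894. Neat1 had 1 site of 4.42 and 2.23, whose nearest start is that of the neighbouring Frmd8os. These 3 sites were CpG-rich, against 28.7% of the 894 sites. All 3 were above the median lncRNA promoter in each mouse, against 41.3% of the 894.

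Each snoRNA host gene of the list with a start away from coding genes had a site, 7 of 7 such genes (of 17 listed), with 8 sites in all. Of all lncRNA genes with such a start, 11.6% had a site. Snhg14 and Rian, which also host snoRNAs, are in the imprinted list and went the other way at the starts searched, those away from coding genes. Snhg14, with 15 annotated starts, had 1 site, among the 5 lowest (0.400 and 0.468). Rian had no peak within 1 kb of a start away from coding genes. Host genes carry snoRNAs, which guide chemical marking of ribosomal RNA, in their introns. Snhg8 was the highest at 8.70 and 8.34, followed by Snhg15 (7.34 and 5.00), Snhg5 (5.83 and 4.49), the Snhg12 site at its start (4.71 and 2.90), Snhg6 (4.67 and 2.53), Snhg17 (3.18 and 2.46) and Snhg20 (2.46 and 2.51). The exception was a second Snhg12 site at 0.668 and 0.764, which was also the CpG-poor one. Over the 8 sites the median was 4.69 and 2.71. Of them, 7 were CpG-rich (87.5%, against 28.7% of all lncRNA promoters), and 7 lay above the median of all lncRNA promoters in both mice (87.5%, against 41.3%). In the printed sequence of Snhg8, counted from 1 at its 5′ end, an SP/KLF pattern started at base 193 and a TATA box pattern at base 235, each inside footprints of both mice, and a CCAAT box pattern at base 144 in no footprint of either. Host genes such as Gas5, Snhg1 and Snhg3, 6 in all, were not among the sites because every start lies within 5 kb of a coding start. Another 3 listed names were not in the annotation and 1 gene had another gene type, so these were not assessed.

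MicroRNA host genes held 18 sites at 7 genes, of 9 with a start away from coding genes (11.6% of all such lncRNA genes had a site). Of 12 listed genes, 2 had every start within 5 kb of a coding start and 1 name was not in the annotation. Mir124a-1hg and Mir124-2hg carry microRNAs of the neuronal miR-124 family, C130071C03Rik and Mir9-3hg those of the miR-9 family, Mir17hg the miR-17 to miR-92 cluster and Mir99ahg the let-7c and miR-99a cluster. The 4 Mir124a-1hg sites ran from 1.34 to 3.74 in replicate 1 and from 0.777 to 1.58 in replicate 2. The 3 Mir124-2hg sites were low, from 0.681 to 1.1 and from 0.647 to 0.853. The 6 Mir99ahg sites, some close together and others far apart, ran from 0.768 to 2.76 and from 0.709 to 2.19. C130071C03Rik was at 3.69 and 1.60, Mir9-3hg at 3.82 and 1.40 and Mir17hg at 2.99 and 1.16, each at least 2-fold higher in replicate 1. With sites of Mir124a-1hg (ratios 2.65 and 2.37), 5 of the 18 sites were so. The share was 13.6% of the 894 sites and 18.2% of all sites. The Mir670hg sites were at 3.93 and 2.30 and at 2.43 and 1.25. Over the 18 sites the median was 2.05 and 1.23, and 8 were above the lncRNA promoter median in both mice (44.4%, near the 41.3% of all 894 sites). Of the 18, 5 were CpG-rich (27.8%, near the 28.7% of all 894 sites). Mir155hg had no peak within 1 kb of a start away from coding genes, and Mirt1 had a peak there in replicate 1 but no site.

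Imprinted lncRNAs, of which only 1 parental copy is usually transcribed, had 7 sites at 4 of 8 genes with a start away from coding genes. Of all such lncRNA genes, 11.6% had a site. Of the 7 sites, 2 were CpG-rich (28.6%, near the 28.7% of all 894 sites). Kcnq1ot1 starts inside Kcnq1 at an imprinting control region. Its site 112 bp upstream was at 3.58 in replicate 1 and 6.43 in replicate 2, and another at 782 bp downstream at 1.21 and 0.805. Meg3 had sites of 1.79 and 1.42 and of 3.75 and 3.16, and Peg13 of 3.73 and 2.65 and of 2.56 and 1.79. Snhg14, the long transcript at the Snrpn and Ube3a locus, had a site of 0.400 and 0.468, among the 5 lowest of all 894. Rian and H19 had no peak within 1 kb of a start away from coding genes. Mirg and Airn had a peak there in replicate 1 but no site. Which allele was open cannot be told from these files.

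At the X inactivation centre, Jpx and Ftx had sites and Xist and Tsix did not. Jpx, an activator of Xist, had 1 site of 1.65 and 1.14. Ftx had 3, at 4.42 and 4.34, at 1.89 and 1.38 and at 1.08 and 0.674. All 4 were CpG-rich, against 28.7% of all lncRNA promoters and 56.0% of the 25 on chromosome X, which include them. The highest Ftx site had nearly equal heights, a ratio of 1.02. An NRF1 pattern started at base 192 of its printed sequence, inside footprints of both mice. Xist and Tsix had no peak within 1 kb of a start away from coding genes in either mouse.

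Of the 8 neural lncRNAs with a start away from coding genes, Miat alone had a site. Over all lncRNA genes with such a start, the share with a site was 11.6%. Miat, a nuclear RNA of neurons, was at 2.92 in replicate 1 and 1.01 in replicate 2, a 2.89-fold difference. The YY1 pattern at base 161 of its printed sequence lay in no footprint of either mouse. Of 19 genes on the list, 8 had a start away from coding genes and 5 had every start within 5 kb of a coding start. Another 5 names were not in the annotation and 1 gene had another gene type, so these were not assessed. Pantr1, Sox2ot, Dlx6os1, Dlx1as and Sox1ot had no peak within 1 kb of such a start. Pantr2 and Rmst had a peak there in replicate 1 but no site. Starts within 5 kb of a coding start were not searched for any list. Over all 41 sites of the lists, 22 were CpG-rich (53.7%, against 28.7% of the 894 sites), 25 were above the lncRNA promoter median in both mice (61.0%, against 41.3%), and replicate 2 was higher at 5 (12.2%, against 19.9%).

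**Figure D3:**
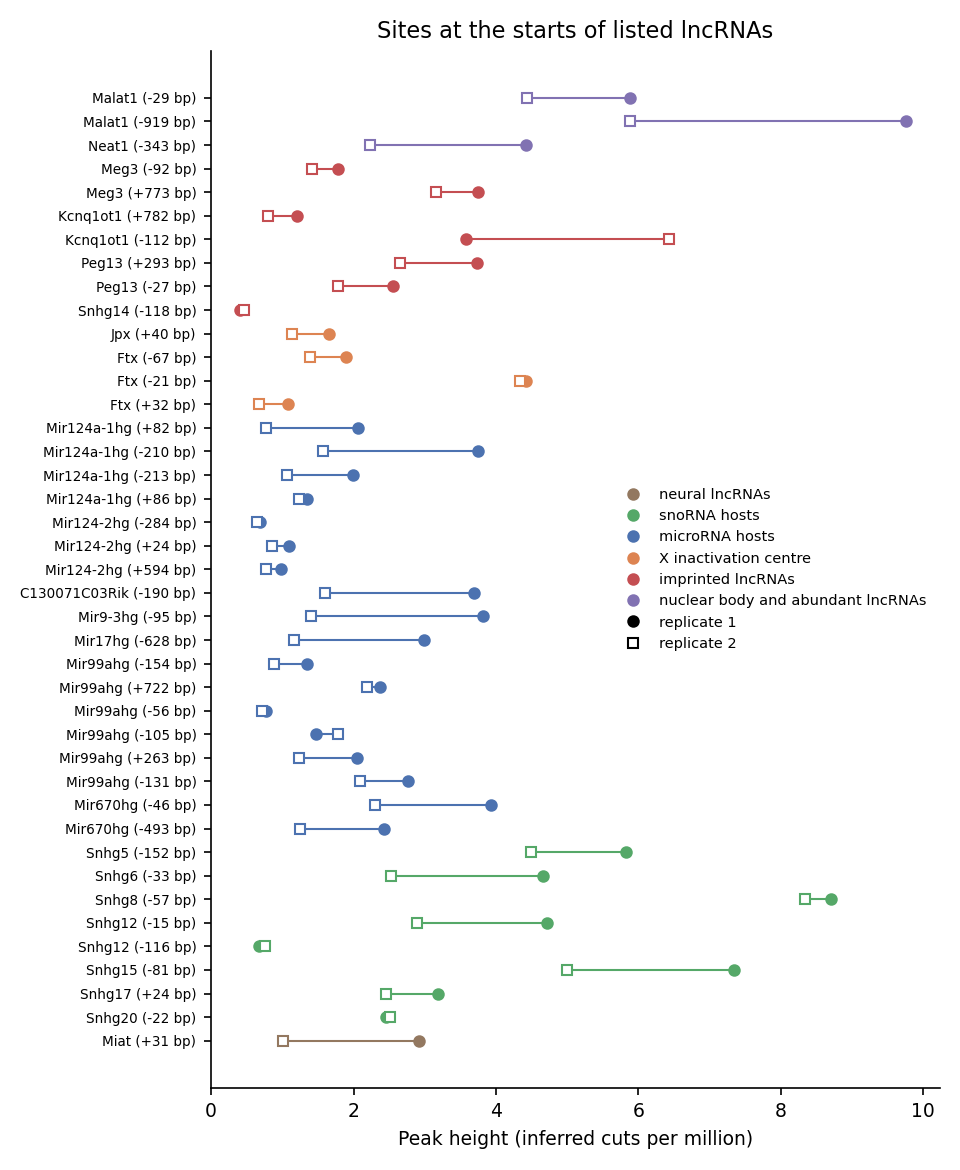
Peak height of every site at listed lncRNAs, in inferred cuts per 1 M on a linear axis. Beside the name is the offset of the midpoint from the nearest start of the listed gene itself, also for Neat1. Circles are replicate 1 and open squares replicate 2, joined by a line per site. Snhg8 (8.70 and 8.34) and the upstream Malat1 site (9.76 and 5.88) reached the highest values of their lists, and Kcnq1ot1 ran the other way (3.58 and 6.43).

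The highest site by far was at Gm42418, with 78.6 and 35.0, and it is a copy of ribosomal RNA. The site overlaps the annotated Rn18s-rs5 gene, and ribosomal DNA is present in many copies that cannot be assigned to 1 place. The next were 1700028E10Rik (14.1 and 10.7), 1700113A16Rik (10.7 and 12.8) and 6720427I07Rik (13.1 and 8.33). Behind them came Gm10433 (11.8 and 8.89), 1700096K18Rik (11.7 and 8.93), Gm15408 (11.2 and 8.41), Tmem250-ps (11.1 and 8.23), 1810026B05Rik (11.5 and 7.78), a neighbour of the chromatin remodeller gene Chd2, and Gm13421 (9.92 and 8.63). The 1700113A16Rik site was higher in replicate 2, unlike the other 9. In its printed sequence an NRF1 pattern started at base 2, in footprints of both mice. In 1700028E10Rik, ETS, SP/KLF and E-box patterns started at bases 170, 105 and 234, each inside footprints of both mice.

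The lowest site was at 1700110I01Rik, at 0.206 and 0.186, and the next at Gm47710 (0.337 and 0.365), Gm30459 (0.325 and 0.413), Gm10825 (0.456 and 0.399) and Snhg14. Low sites were CpG-poor in most cases, as 8 of the lowest 100 were CpG-rich, and low sites of all classes were so too. Among sites of mean height up to 1, 11.7% of lncRNA promoters and 8.14% of all sites were CpG-rich. The sites with the most footprints were wide. They were at 2410080I02Rik near Klf9, with 14 footprints in replicate 1 and 16 in replicate 2 at one site and 12 and 8 at another, at Gm49445 (11 and 13), Lncppara (13 and 9) and 2900072N19Rik (11 and 10).

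Heights were higher in replicate 1 at most sites, as for open sites in general. The median ratio of replicate 1 over replicate 2 was 1.33, against 1.38 over all sites, 1.68 in coding promoters and 1.23 in distal sites. Replicate 1 was higher at 716 of 894 (80.1%), against 79.4% of all sites. A difference of 2-fold or more with replicate 1 higher was seen at 122 sites (13.6%, against a background of 18.2% of all sites), and with replicate 2 higher at 6 (0.671%, background 0.471%). Heights divided by the median of all sites in each mouse turned the median ratio to 0.942, so the direction depends on the scaling. The ratio was larger at CpG-rich sites, with a median of 1.61 against 1.24 at CpG-poor ones, and 67 of 257 CpG-rich sites (26.1%) were at least 2-fold higher in replicate 1 against 55 of 637 CpG-poor ones (8.63%). With 1 library per mouse, a difference between animals and one between libraries cannot be told apart.

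The sites with the widest difference in each direction were single loci. Replicate 1 was highest relative to replicate 2 at 1700012D14Rik (3.87 and 0.660, ratio 5.85), 6530409C15Rik (3.69 and 0.936), 1700028I16Rik (2.07 and 0.557), Gm48693 (2.47 and 0.674) and 2410018L13Rik (0.812 and 0.234), which were all CpG-rich. The reverse held at AU023762 (0.244 and 1.12, ratio 0.217), Gm2109 (0.462 and 1.58), F630040K05Rik (0.743 and 2.41), Gm49477 (0.893 and 2.00) and the lower Gm13421 site (0.856 and 1.81), which were all CpG-poor. Of the 894 sites, 28.7% were CpG-rich. The same held for open sites in general: 37.3% of CpG-rich and 9.10% of CpG-poor sites were at least 2-fold higher in replicate 1. In replicate 2 these shares were 0.0497% and 0.671%. Across the 894 sites the heights of the mice had a Spearman correlation of 0.830, over sites that share the 2 libraries.

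**Figure D4:**
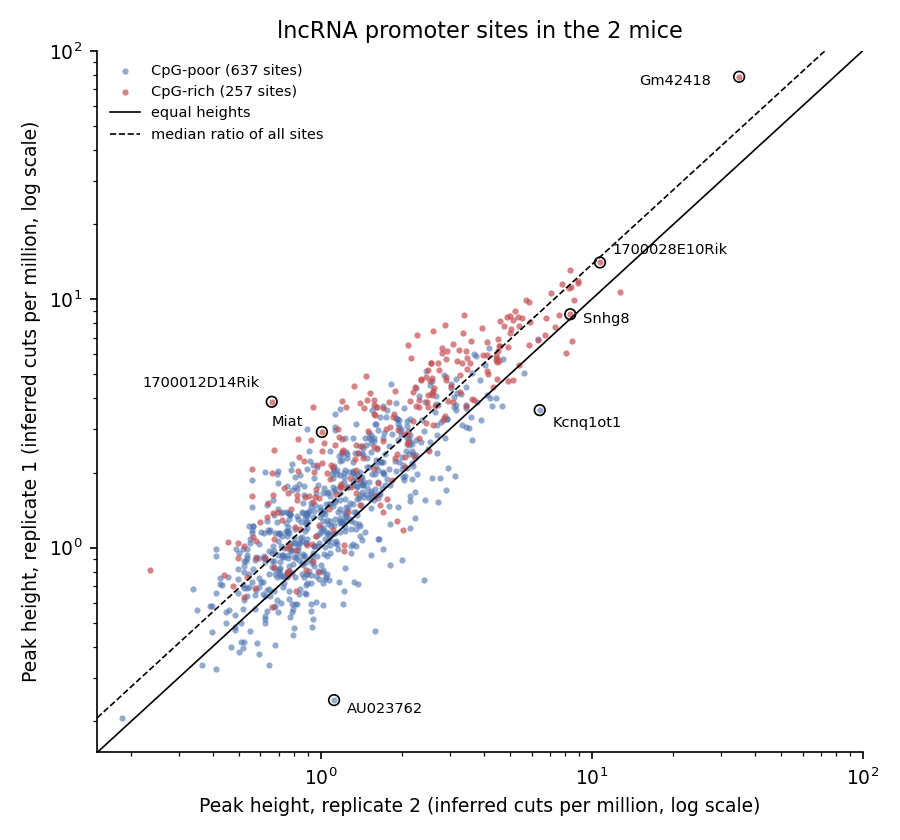
Peak height of each of the 894 sites in replicate 2 (x) and replicate 1 (y), in inferred cuts per 1 M on log axes, red for CpG-rich and blue for CpG-poor sites, with circles around named sites. The solid line marks equal heights and the dashed line the median ratio of all sites, 1.38. Most points lie above the solid line (716 of 894), Gm42418 stands apart at the top (78.6 and 35.0), and AU023762 lies below the line.

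Nearly all sites held a footprint. At least 1 was found in 94.2% and 96.3% of lncRNA promoters of replicates 1 and 2 (95.2 ± 1.5%, SD over 2 mice), against 93.8% and 95.1% in coding promoters and 96.4% and 96.2% in distal sites. Both mice had a footprint at 821 sites, and neither at 12, whose median heights were 0.790 and 0.619. Among sites of mean height up to 1, the share with a footprint was 87.2% and 92.5% in lncRNA promoters, against 70.6% and 81.4% in coding promoters and 93.2% and 92.5% in distal sites. The density was 1.18 and 1.12 footprints per 100 bp, against 1.38 and 1.27 in coding promoters and 1.11 and 1.08 in distal sites. Inside CpG-rich lncRNA promoters it was 1.36 and 1.26, and in CpG-poor ones 1.09 and 1.06. Of the footprints of lncRNA promoters in replicate 1, 43.3% were overlapped over at least 50% by one of replicate 2, and 41.1% the other way, against 47.0% and 47.5% in coding promoters and 40.7% and 39.4% in distal sites. Footprints were 9 and 10 bp wide in the median.

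Open bases extended beyond the site. Within 1 kb of the midpoint, the median lncRNA promoter had 547 bases at a false discovery rate of 0.001 or less in replicate 1 and 353 in replicate 2. The same was 970 and 568 in coding promoters and 285 and 258 in distal sites. It was 829 and 544 in CpG-rich lncRNA promoters and 442 and 302 in CpG-poor ones.

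The share of repeat-masked sequence was near that of all sites. No masked base lay in 320 of the 300 bp windows (35.8%), against 40.6% of all sites, 51.2% of coding promoters and 34.3% of distal sites. Windows masked over more than 50% numbered 8 (0.895%), against 0.967% of all sites. Median GC content was 53.7%, against 63.7% and 49.7%.

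Transcription factor patterns were counted in the 300 bp around the midpoint, on both strands, in 15 patterns spelled as 5′ to 3′ letters, with CTCF by name alone. A match is a description of letters, not a site of a factor. The SP/KLF pattern GGGGCGG was in 17% of lncRNA promoters, against 40.6% of coding promoters, 4.77% of distal sites and 18.4% of all sites. In CpG-rich lncRNA promoters it was in 36.2%, against 48.4% of CpG-rich coding promoters. The ETS pattern CCGGAAG was in 5.93% (15.5% coding, 2.10% distal, 7.08% of all sites), the NRF1 pattern GCATGCGC in 3.02% (5.26%, 1.16% and 2.72%) and the CCAAT box CCAATC in 13.4% (19.2%, 9.07% and 12.9%). These patterns of promoters lay between the coding and distal levels.

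The patterns of distal sites were found at intermediate levels too. The CTCF pattern, of the factor that sets loop boundaries, was in 6.82% of lncRNA promoters, against 1.97% of coding promoters, 10.2% of distal sites and 7.37% of all sites. At 90.2% of its matches in replicate 1 and 96.7% in replicate 2 it lay inside a footprint over at least 50% of its length, near the 89.6% and 86.4% of coding promoters and the 92.9% and 92.7% of distal sites. The E-box CAGATG was in 24.5% (12% coding, 34.2% distal, 25.3% of all sites), the E-box CAGCTG in 25.7% (17.7%, 26.3% and 23.0%), the AP-1 pattern TGAGTCA in 8.50% (3.52%, 12.9% and 9.03%) and the NFI pattern CTTGGCA in 8.72% (4.59%, 11.3% and 8.65%). The TATA box TATAAA was in 9.28% (3.94%, 12.7% and 9.03%), and 5.49% of its matches lay in a footprint in each mouse, against 18.8% and 10.3% in coding promoters and 4.09% and 3.38% in distal sites. The RFX pattern GTTGCCATG was in 2.46% (1.15% coding, 1.75% distal, 1.54% of all sites), above both other classes, on 22 sites, with 82.6% and 65.2% of matches in footprints, against 65.8% and 58.4% in coding promoters and 54.5% and 66.4% in distal sites. Of the remaining patterns, CRE (TGACGTCA) was in 1.79% (3.27% coding, 0.640% distal, 1.63% of all sites) and MEF2 (TATTTTTAG) in 1.12% (0.282%, 1.51% and 0.999%), both near the share of all sites. YY1 (AAGATGG) was in 4.70% (7.25%, 6.03% and 6.41%) and EGR (GCGTGGGCG) in 0.224%, 2 sites (1.49%, 0.288% and 0.747%), both below coding and distal sites.

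**Figure D5:**
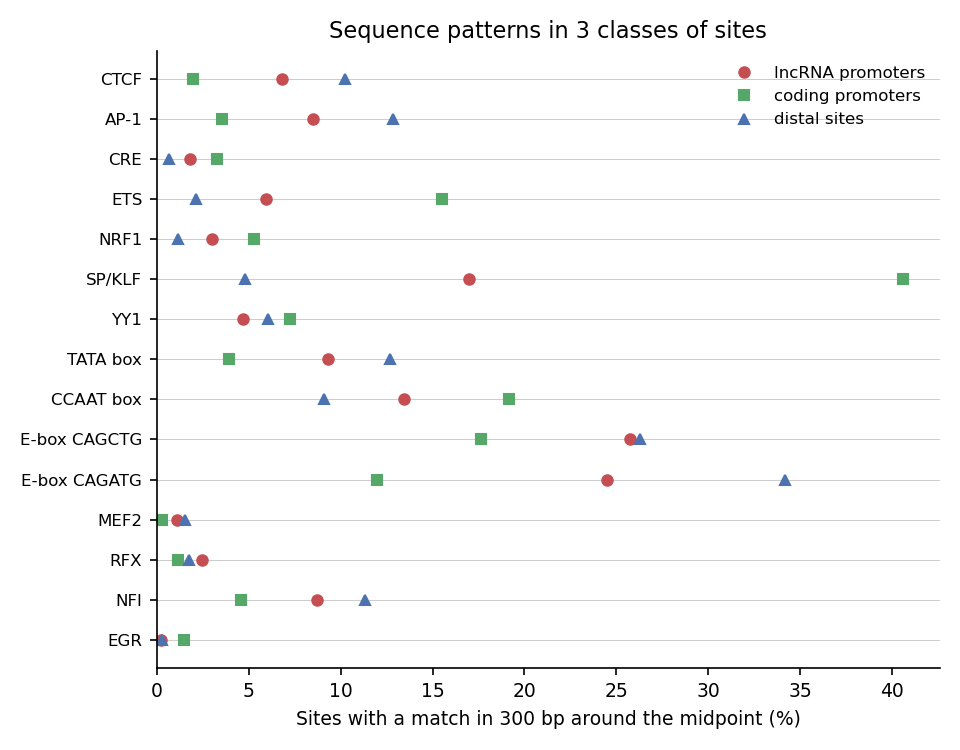
Percent of sites with at least 1 match of each pattern in 300 bp around the midpoint, for lncRNA promoters (red circles), coding promoters (green squares) and distal sites (blue triangles). The red circle lies between the other classes for most patterns, such as SP/KLF (17% against 40.6% and 4.77%), and outside them for RFX (2.46%), YY1 (4.70%) and EGR (0.224%).

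Heights were compared for sites with and without 5 of the patterns, 3 of which (NRF1, ETS and CRE) went with higher medians in both mice, as did CTCF, while TATA box sites were lower. The 27 sites with an NRF1 match had medians of 2.74 and 1.62, the 53 with an ETS match 2.70 and 1.88, and the 16 with a CRE match 3.70 and 2.33, with median CpG ratios of 0.673, 0.590 and 0.807. The 61 with a CTCF match were at 1.84 and 1.46, against 1.61 and 1.18 for the other 833, and their median mouse ratio was 1.16 against 1.35. The 83 with a TATA box were at 1.38 and 1.13, against 1.68 and 1.20 for the rest.

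Members were found on every chromosome used, from 25 on X to 67 on chromosome 9, and made up between 1.54% and 3.23% of the sites of a chromosome. Chromosomes 13 and 17, with 3.23% and 3.22%, had the highest share, and chromosome 11, with 1.54%, the lowest.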

How the data were processed

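The 2 DNase-seq libraries (left cerebral cortex) were treated as 2 mice. The deposited files, on mm10 and listed per library without pooling, gave peaks with a signal, footprints with a constant score (used only as intervals) and false discovery rates of the cut rate. The authors' signal in column 7 is the height used here. The deposited rates are adjusted p-values (q-values) and were used to count open bases. No aligner or peak caller was named (not given in the sources used here), and the normalization of the signal was inferred from its steps.

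Peaks of the shorter list were merged where they overlap or touch. Start sites came from GENCODE M21, sequence from GRCm38.p6 (RefSeq). Python 3.11.15, NumPy 2.4.6, pandas 2.3.3, SciPy 1.17.1 and matplotlib 3.10.9 were used. Coordinates are 1-based. The steps were tested on simulated data. With 2 libraries in 1 group, values are given per mouse, with no test. Wilson intervals at 95% cover counting error only. Footprints count for a site when they lie wholly in it, and a match lies in a footprint when at least 50% of it does. Named sites are the 10 highest, the 5 lowest, the 5 at each end of the mouse ratio, the 5 with most footprints, the listed lncRNAs and the 3 sites nearest each side of a threshold. The members, lists and rules were chosen with earlier results of these data known. Alternatives are in the closing section.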

Additional observations from a re-analysis of the deposited data

How the results depend on the processing

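For each of 7 results, the settings that apply to it were changed one at a time. Over 14 different settings this gave 80 values in all. Of these, 42 moved by less than the spread between the mice (for counts, by less than 1.5 times; for the share of genes, within the Wilson interval), 37 moved by more or have no spread to set them against, and 1 changed direction. The cause was not tested. With the longer peak list the number of sites was 1375, the median height 0.995, the share with a footprint 89.1%, the CpG ratio 0.384, the mouse ratio 1.32 and the share of lncRNA genes 17%. With the higher 50% of peaks these were 498, 2.22, 98.8%, 0.502, 1.39 and 6.77%. With a window of 500 bp the CpG ratio was 0.457, the mouse ratio 1.35 and the share of genes 9.43%. Over 10 kb from coding starts the CpG ratio was 0.421 and the mouse ratio 1.33, with lincRNA and antisense genes alone 0.409 and 1.33, and with gene starts alone 0.453 and 1.36. With peaks overlapping by 50% of both they were 0.425 and 1.33, with 9.28% of genes. The CpG ratio of the site itself was 0.430. With heights divided by the median of all sites, the median height was 1.00 and the mouse ratio 0.942, so that replicate 1 was the lower one relative to all open sites. Leaving out a mouse, with the sites of the other alone, gave 1145 and 1378 sites, a median height from 1.01 to 1.18, a footprint share from 82.9% to 87.9%, a CpG ratio from 0.397 to 0.411, a share of genes from 13.7% to 15.3% and a coding over lncRNA height ratio from 1.56 to 1.85. A mouse ratio cannot be given for 1 mouse. Chosen after seeing the data were joining only overlapping peaks (mouse ratio 1.33) and leaving out sites within 5 kb of RefSeq mRNA starts (CpG ratio 0.422, mouse ratio 1.33). The coding promoter median stayed above the lncRNA one in every setting. CpG-rich sites were higher in each mouse alone too (2.13 against 1.04 in replicate 1, 1.51 against 0.922 in replicate 2). No paired analysis was possible because both libraries belong to 1 group. At the median height the counting error was 6.17% and 7.61%, and it is larger at lower sites.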

Other observations

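Genes with several sites were chosen here after their values were seen. Dleu2, a lncRNA that hosts microRNAs of the miR-15 and miR-16 family, had 4 sites, from 2.46 to 6.2 in replicate 1 and from 1.01 to 4.52 in replicate 2. Gm3764 had 4 of like height, from 2.34 to 3.14 and from 1.17 to 2.09. Gm6410 also had 4, from 0.656 to 8.63 and from 0.413 to 7.58. 3110039I08Rik had 4, from 1.88 to 4.12 and from 1.35 to 2.48. Among genes with 3 sites, Gm37494 ran from 0.412 to 7.18 and from 0.585 to 6.70, and Trerf1, which RefSeq lists as coding, from 1.21 to 6.90 and from 0.894 to 4.53.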
